A study of Mus musculus with 49 samples.

Results

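The transcripts of 10 genes that bind metal or act against oxidants were followed through the culture of mouse hepatocytes and their conversion to other cell types. The genes were the metallothioneins Mt1 and Mt2 and 8 genes listed as antioxidant genes of the NRF2 pathway, Hmox1, Nqo1, Gclc, Gclm, Srxn1, Txnrd1, Gpx2 and Gpx3. They were chosen by name, with earlier results of these data known. The rows of the UMI count matrix whose Ensembl identifiers map to these symbols were used, 10 of 46078 rows. All animals were wild-type C57BL/6J mice. Freshly isolated hepatocytes (FH, 3 libraries) came from the livers of 10-week-old mice. They were plated as a monolayer on collagen in medium with 20 ng/mL EGF and collected 3 h, 1 day, 2 days, 4 days, 7 days and 14 days later (3 libraries each), or after 7 days with 0.3 µM verteporfin, an inhibitor of YAP signaling, or its solvent DMSO (2 each). DediHeps (5) were dedifferentiated hepatocyte-derived cells that had been passaged in the same monolayer. They were also collected after 3D culture in another medium as aggregates (3), and after culture in Matrigel in intestinal organoid medium as spheroidal organoids (dediHep-SO, 3). After retroviral expression of Cdx2, they were collected as budding organoids (dediHep-BO, 3). CLiPs (3) were hepatocytes of 10-week-old mice cultured with the small molecules Y-27632, A-83-01 and CHIR99021. The intestinal references were spheroidal organoids of E13.5 fetal intestinal progenitors (FIPC-SO, 3) and budding organoids of intestinal stem cells of 10-week-old adult mice (ISC-BO, 4). In all, 49 libraries in 16 conditions were examined.

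Metallothioneins are small cysteine-rich proteins that bind zinc and copper. Their transcription is driven by the zinc sensor MTF1, which binds metal response elements in their promoters, and it also responds to glucocorticoids and to acute stress of the liver. NRF2, encoded by Nfe2l2, is held at a low level by KEAP1, which directs its degradation. When oxidants or electrophiles modify KEAP1, NRF2 pairs with small MAF proteins at antioxidant response elements, where BACH1 otherwise represses genes such as Hmox1. Of the genes followed here, Hmox1 encodes heme oxygenase-1, which degrades heme, and Nqo1 a quinone reductase. Gclc and Gclm encode the catalytic and modifier subunits of glutamate-cysteine ligase, which makes the first step of glutathione synthesis. Srxn1 encodes sulfiredoxin, which restores overoxidized peroxiredoxins, and Txnrd1 encodes cytosolic thioredoxin reductase. Gpx2 and Gpx3 encode glutathione peroxidases, Gpx2 being best known from the gastrointestinal epithelium and Gpx3 from plasma, into which it is secreted.

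Mt2 and Mt1 lie next to each other on chromosome 8 of GRCm38, Mt2 at 94172664 to 94173568 and Mt1 at 94179082 to 94180327, both on the plus strand and with starts 6418 bases apart. RefSeq promoter windows, from 250 bases before to 50 after a transcription start, were given for 8 of the 10 genes, in 10 windows, and not for Hmox1 and Gclc. The windows were searched on both strands for the cores of the metal response element (TGCACNC or TGCGCNC), of the antioxidant response element (TGACNNNGC) and of the AP-1 element (TGACTCA). Of 32851 mouse windows of the same length, 25.7% held at least 1 metal response core, 12.4% an antioxidant response core and 5.20% an AP-1 core. A match is a stretch of letters and not a shown binding site. The windows of Mt2 and Mt1 are printed to show their metal response cores, 4 and 3 of them. At least 4 such cores were found in 170 of all windows (0.518%), that of Mt2 among them. The cores are in capitals in the 280 bases from 250 before to 30 after the start, plus strand, at chr8:94172368-94172647 for Mt2 and chr8:94178839-94179118 for Mt1 (RefSeq, GRCm38.p6):

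Mt2: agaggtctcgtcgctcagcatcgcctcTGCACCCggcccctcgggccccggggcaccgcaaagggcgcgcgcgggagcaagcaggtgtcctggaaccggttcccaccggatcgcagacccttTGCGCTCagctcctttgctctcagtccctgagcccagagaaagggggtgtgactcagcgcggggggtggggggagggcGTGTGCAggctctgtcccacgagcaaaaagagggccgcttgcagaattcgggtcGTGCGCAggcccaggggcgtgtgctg

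Mt1: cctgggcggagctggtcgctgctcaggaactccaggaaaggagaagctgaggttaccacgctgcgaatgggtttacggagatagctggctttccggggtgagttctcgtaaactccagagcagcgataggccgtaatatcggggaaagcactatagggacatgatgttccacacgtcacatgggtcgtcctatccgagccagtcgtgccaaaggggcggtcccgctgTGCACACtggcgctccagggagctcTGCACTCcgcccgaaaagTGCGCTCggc

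The first bases of the cores lay at -223, -128, -50 and 5 from the RefSeq start in Mt2 and at -23, 3 and 21 in Mt1. Mt2 also held an antioxidant response core at -79 that overlaps an AP-1 core. The Mt1 window held none, which says only that these letters were not in these bases. For Mt1 the window of 1 RefSeq start was searched, and bases beyond it were not. The windows of Gclm (chr3:122245307-122245586) and of the second of 3 starts of Txnrd1 (chr10:82858956-82859235) are printed to show an antioxidant response core, here in capitals, in members of the NRF2 group:

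Gclm: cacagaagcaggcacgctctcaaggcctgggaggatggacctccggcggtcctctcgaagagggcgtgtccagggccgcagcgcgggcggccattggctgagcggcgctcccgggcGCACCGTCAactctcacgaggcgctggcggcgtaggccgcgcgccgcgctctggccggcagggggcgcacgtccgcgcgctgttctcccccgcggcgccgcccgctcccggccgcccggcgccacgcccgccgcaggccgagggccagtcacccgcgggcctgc

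Txnrd1: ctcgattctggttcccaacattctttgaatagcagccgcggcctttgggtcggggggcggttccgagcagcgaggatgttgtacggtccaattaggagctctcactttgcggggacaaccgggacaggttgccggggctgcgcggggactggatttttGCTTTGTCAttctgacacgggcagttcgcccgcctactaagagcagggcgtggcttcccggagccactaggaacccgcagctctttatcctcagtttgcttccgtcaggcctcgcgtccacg

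These cores lay at -134 in Gclm, overlapping a metal response core at -138, and at -92 in Txnrd1. With 2 more at -72 and 28, the Gclm window held 3 metal response cores, as many as that of Mt1. Srxn1 held an antioxidant response core at 29, a metal response core at -19 and AP-1 cores at -102 and -45. No core was matched in the windows of Nqo1, Gpx2, Gpx3 and the other starts of Txnrd1, which says only that these letters were not in these bases.

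Library totals ran from 861047 UMIs in the third 14-day library to 3872936. Levels are given as CPM, UMI counts scaled to the library totals with TMM factors over all 49 libraries, and errors are SDs between libraries. A count of 0 allows a level of up to 3 counts, which was 0.671 to 3.91 CPM. The UMIs have 6 bases, so that the number of possible sequences limits the count of 1 gene in a library. Mt1, Mt2 and Srxn1 came close to this limit, and their CPM are lower bounds of the level where they did. A gene passed a test with an FDR under 0.1 in the quasi-likelihood F-test of edgeR, adjusted over all genes tested. The time course was 1 fit, and all comparisons with FH share the same 3 FH libraries. The labels do not say which libraries of a condition came from separate animals, so that p-values measure the spread between libraries, which may be technical. In bulk RNA, fewer cells of a type and less RNA per cell cannot be told apart. The summed level of 10 hepatocyte markers was 21707 to 26825 CPM in FH, 1636 to 2225 CPM at 14 days and 103.9 to 132.6 CPM in dediHep-SOs. The highest count of any gene was 4049 to 4084 in the FH libraries, which is also close to the UMI limit. Which markers came close to it was not tested. Sums of hepatocyte markers, here and below, may therefore be lower bounds, and their differences from FH may be understated. Of 11 Kupffer and macrophage markers, which summed to 143 to 454 CPM in FH, 7 of the 10 tested fell by 3 h, when the sum was 2.39 to 13.9 CPM.

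More of these genes rose in the first hours of culture than from 3 h to 1 day or from 1 day to 14 days. At 3 h, 5 of the 9 genes tested had risen and none had fallen, against 7.58% of 12443 genes that rose and 10.9% that fell. The median log2 difference of the 9 was 1.95 against -0.07 over all genes. At 1 day 6 rose and 1 fell (all genes, 17.7% and 22.2%), at 2 days 6 rose and 1 fell (21.2% and 23.1%), and at 4 days 4 rose and 1 fell (23.5% and 23.5%). At 7 days 3 rose and 1 fell (25.6% and 23.5%), and at 14 days 4 rose and 1 fell (28% and 27.6%). The share of the 9 genes that had risen was thus well above that of all genes at 3 h, 1 day and 2 days and nearer to it from 4 days on. Since the genes were chosen with earlier results of these data known, this excess is a description and not a test. Gpx2, with at most 1 count in any library of this fit, was removed by the filter on low counts. Gpx3 had 0 counts in FH and at 3 h and passed this filter only through later times. It could not pass at 3 h, and its later calls against FH are descriptions. Between 3 h and 1 day 2 rose and 4 fell (26.5% and 26.2%), and between 1 day and 14 days 1 rose and 4 fell (16% and 14%).

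In dediHeps 3 of the 8 genes tested were higher than in FH and 1 was lower, against 22.4% and 22.7% of 11276 genes. Aggregates had 4 of 8 higher and 0 lower than dediHeps (12.2% and 12.2% of 11265 genes), and 3 of 7 higher and 0 lower than FH (15.9% and 19.7%). In dediHep-SOs 1 of 9 was higher and 3 were lower than in dediHeps (7.93% and 8.21%), and 1 was higher and 1 lower than in FIPC-SOs (13.1% and 10.3%). In dediHep-BOs 3 of 9 were higher and 2 lower than in dediHep-SOs (19.2% and 21.3%), and against ISC-BOs 0 were higher and 1 lower (5.26% and 4.94%). In CLiPs 1 of 8 was higher and 0 lower than in dediHeps (2.84% and 1.85%), and 4 were higher and 0 lower than in FH (20.3% and 16.7%). With verteporfin 1 of 9 was higher and 0 were lower than with DMSO (0.317% and 0.0577%), and 5 had an unadjusted p under 0.05. With a block on the replicate number that these libraries share, Hmox1 (FDR = 0.0467), Gclm (0.0708), Srxn1 (0.0122) and Txnrd1 (0.0592) also passed in edgeR. Of all genes, 882 then passed instead of 39, and with so few libraries the block leaves little from which to estimate the spread. Some of these counts rested on 1 library. They were 2 for dediHeps against FH without dediHep replicate 2, 2 for dediHep-SOs against dediHeps without dediHep replicate 5 or dediHep-SO replicate 1, and 4 for dediHep-SOs against FIPC-SOs without dediHep-SO replicate 3. Against ISC-BOs the count was 0 without dediHep-BO replicate 1 or 2 or ISC-BO replicate 1 or 3. For CLiPs against dediHeps it was 3 without dediHep replicate 4 and 2 without CLiP replicate 2. Genes left out for low counts in these comparisons were Nqo1, Gpx2 or Gpx3, which had few or no counts in several conditions. Where 1 group had 0 counts, a gene passed the filter only through the other group, and its call is a description. This holds for Gpx2 and Gpx3 in dediHep-SOs against dediHeps and for Gpx3 in dediHeps and CLiPs against FH.

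**Figure D1:**
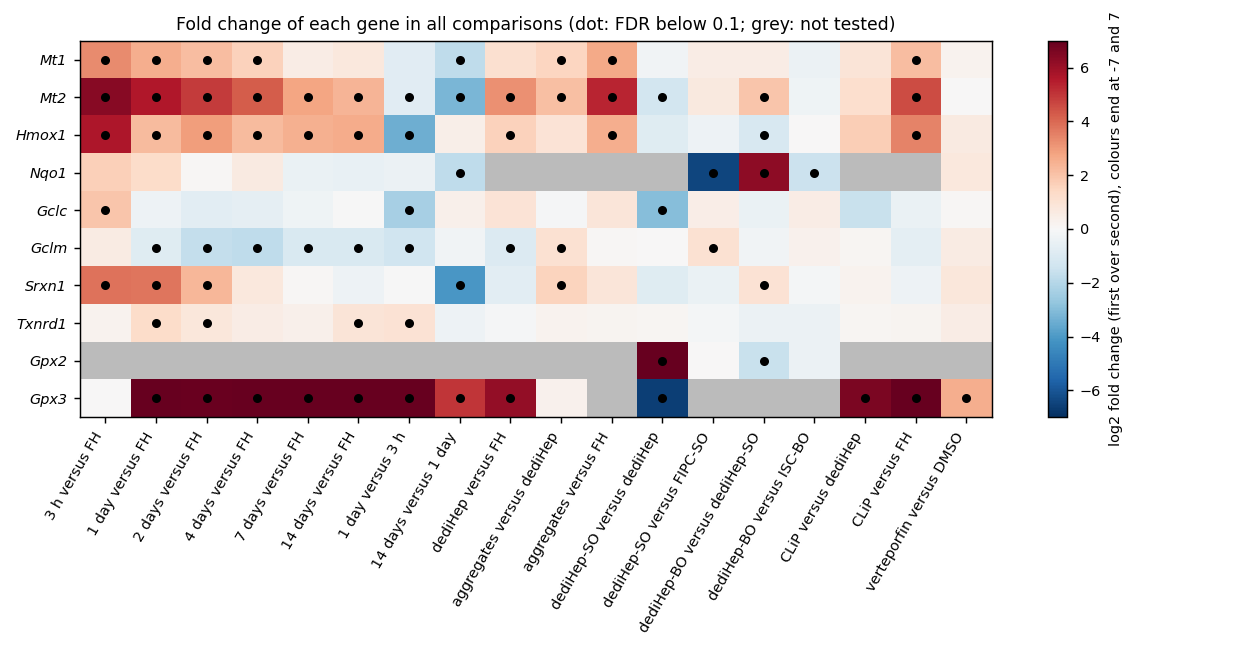
Each row is 1 of the 10 genes and each column 1 of the 18 comparisons. Colour gives the log2 fold change of the first over the second group (colours end at -7 and 7), a dot marks an FDR under 0.1 in edgeR, and grey marks a gene that was not tested. Mt2 carries a dot in every comparison with FH, while among these comparisons the dots of Srxn1 end after 2 days. For Gpx3 and Gpx2 against a group with 0 counts the colour depends on the prior count of the fit and gives no bound.

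Mt1 and Mt2 rose within 3 h of plating and then came down over 14 days. Mt2 stood at 12.0, 28.7 and 51.9 CPM in the FH libraries and at 2894, 2471 and 2367 CPM at 3 h. No culture library came near the FH range at that time, and the log2 difference of 6.39 (SE 0.446, FDR = 5.934e-09, edgeR) had the third smallest p of 12443 genes. The level was 1678 ± 186 CPM at 1 day, 1029.9 ± 141 CPM at 2 days, 633 ± 121 CPM at 4 days, 234 ± 67.1 CPM at 7 days and 181 ± 77.2 CPM at 14 days (SD, n = 3 each). Mt2 remained above every FH library at each time, with log2 differences of 5.59 at 1 day, 4.89 at 2 days, 4.22 at 4 days, 2.75 at 7 days and 2.39 at 14 days (FDR = 2.427e-05 at 14 days). The FH libraries set part of this size. Without FH replicate 3, the highest of the 3, the differences were 7.00, 6.22, 5.52, 4.84, 3.37 and 3.01 in the same order from 3 h on.

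Mt1 was already present in FH, at 75.1, 386 and 445 CPM, and reached 3359, 2860.5 and 2696 CPM at 3 h, a log2 difference of 3.31 (SE 0.479, FDR = 1.165e-04, edgeR). It stood at 1936 ± 185 CPM at 1 day, 1504 ± 114 CPM at 2 days and 1026 ± 306 CPM at 4 days, with log2 differences from FH of 2.52, 2.16 and 1.63. At 7 days the libraries held 825, 277 and 345 CPM and at 14 days 534, 771 and 378 CPM. These ranges overlapped the FH range and did not pass the test, although 14 days passed without FH replicate 3 (log2 difference 1.14, FDR = 0.0661) or without 14-day replicate 3 (1.03, FDR = 0.0981), and with no low-count filter (0.82, FDR = 0.0594). From 1 day to 14 days Mt1 fell by 1.77 on the log2 scale (FDR = 0.00470) and Mt2 by 3.20 (FDR = 8.044e-07).

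**Figure D2:**
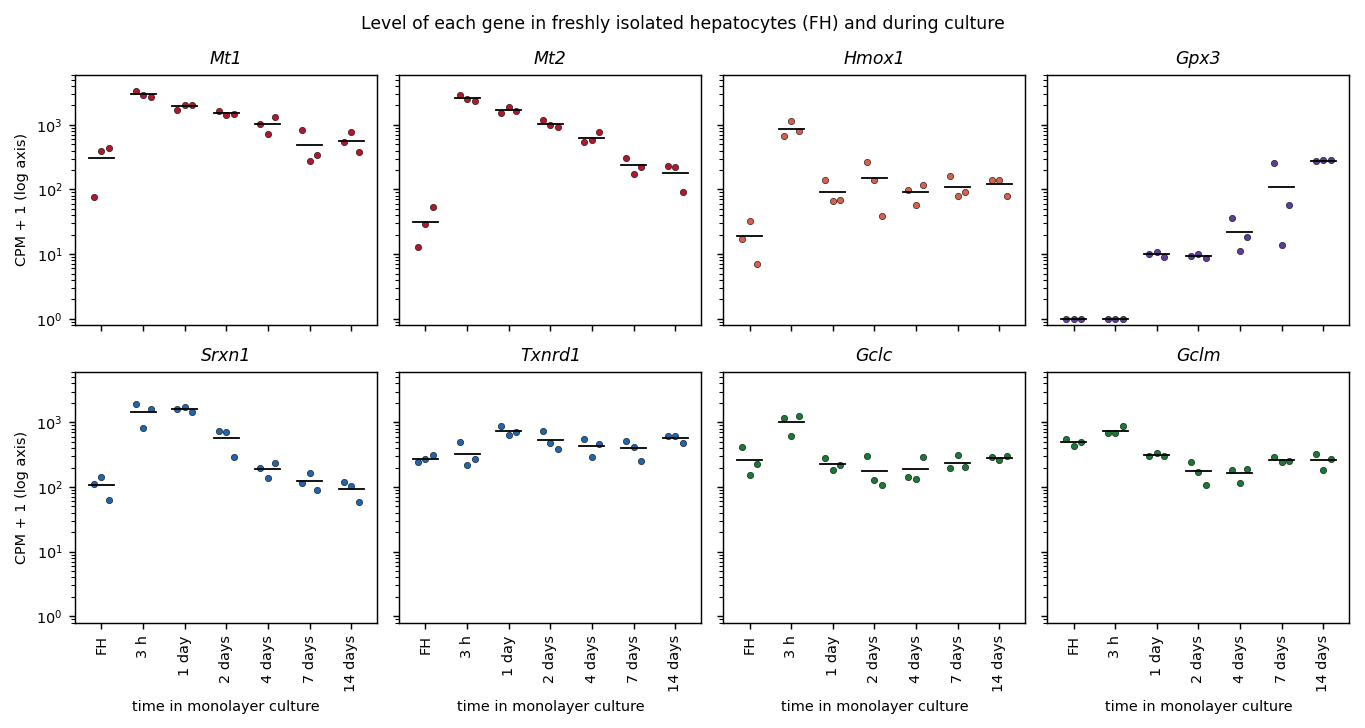
The level of each gene in FH and at 6 times of monolayer culture is shown as CPM + 1 on a log axis. Points are libraries (3 per time) and lines are means. Mt1, Mt2, Hmox1, Srxn1 and Gclc were highest at 3 h or 1 day, and Gpx3 had 0 counts in FH and at 3 h and reached 279 ± 1.67 CPM (SD) at 14 days.

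Whether the metallothioneins had begun to decline by 1 day depended on the UMI limit. Mt1 held 4005 to 4041 counts in the 1-day libraries, against 2520 to 2814 at 3 h, so that nearly all possible UMI sequences were in use at 1 day. In the deposited counts the log2 difference of Mt1 between 1 day and 3 h was -0.79, which did not pass (FDR = 0.146, edgeR). After each count was corrected for molecules that share a UMI, the mean was 6560 ± 976 CPM at 1 day and 4070.4 ± 643 CPM at 3 h, and the log2 difference turned to 0.56 (FDR = 0.399). The correction assumes that all UMI sequences are used equally. So near the limit, a small change in the count moves the corrected level strongly, and the 1-day value of Mt1 is uncertain. Mt2 held 3238 to 3702 counts at 1 day. It was lower than at 3 h in the deposited counts (-0.79, FDR = 0.0677), and the call was lost after correction (-0.14, FDR = 0.801), at 3183 ± 742 against 3194 ± 428 CPM. The call was also lost with no low-count filter (FDR = 0.141), with all 49 libraries in 1 fit (FDR = 0.164) and without any 1 of 3-h replicates 1 (FDR = 0.160), 2 (0.108) and 3 (0.110) or 1-day replicates 1 (0.172) and 3 (0.151). The correction left the earlier calls in place and enlarged them, to 3.98 for Mt1 and 6.97 for Mt2 at 3 h to 4.53 and 6.84 at 1 day and to 3.43 and 5.57 at 2 days against FH. The declines from 1 day to 14 days became -3.56 for Mt1 and -4.30 for Mt2.

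**Figure D3:**
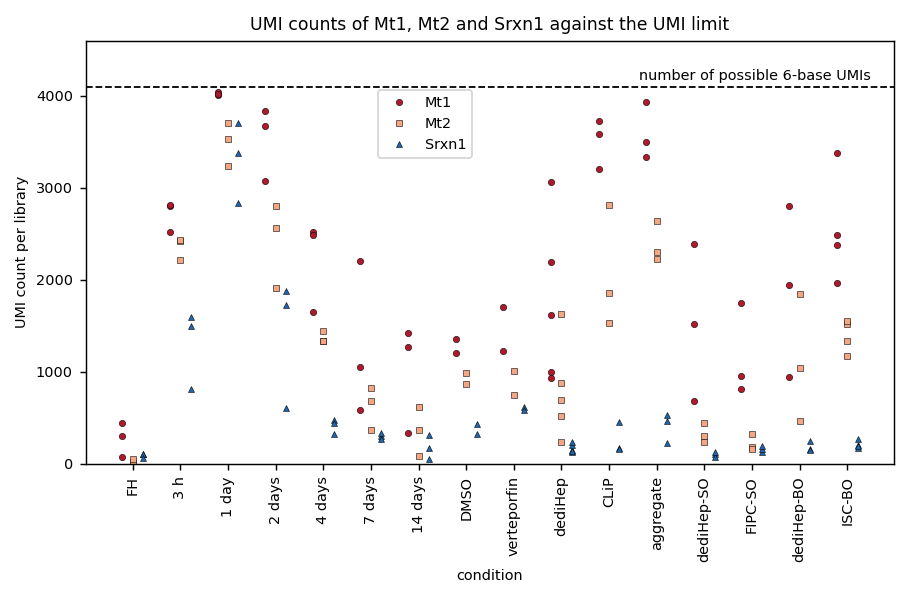
UMI counts per library of Mt1, Mt2 and Srxn1 are shown on a linear axis in the 16 conditions, with a dashed line at the number of possible UMI sequences. The 3 Mt1 counts at 1 day, 4005 to 4041, sit just under the line, and Mt1 in aggregates and CLiPs reached 3200 to 3930 counts.

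The metallothioneins were higher in aggregates than in monolayer dediHeps. The medium also differed, so aggregation and medium cannot be told apart here. Mt2 in dediHeps ranged from 121 to 660.2 CPM around a median of 285 CPM and was above FH by 3.22 on the log2 scale (SE 0.623, FDR = 0.00187, edgeR). That difference was 3.82 without FH replicate 3. Mt1 in dediHeps ranged from 473 to 1246 CPM around a median of 675 CPM, and all 5 libraries lay above the 3 of FH, but it passed against FH only under other settings (DESeq2, FDR = 0.0964; no low-count filter, 0.0685; UMI-corrected counts, 0.0730; all 49 libraries in 1 fit, 0.0176). Aggregates held 2702, 1708 and 1711 CPM of Mt1 and 1776, 1146 and 1144 CPM of Mt2, all above every dediHep library. The log2 differences from dediHeps were 1.52 for Mt1 (SE 0.325, FDR = 0.0144) and 2.08 for Mt2 (SE 0.432, FDR = 0.0122). With the counts corrected for shared UMIs the difference of Mt1 was 2.33, and those from FH given next were 3.96 for Mt1 and 5.97 for Mt2. Against FH, aggregates were higher by 2.64 for Mt1 (FDR = 0.00523) and 5.33 for Mt2 (FDR = 6.025e-05).

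The organoids had Mt2 levels that separated more clearly than those of Mt1. DediHep-SOs held 138, 120.4 and 136 CPM of Mt2, within or just below the range of dediHeps, and the difference of -1.31 (SE 0.452, FDR = 0.0945, edgeR) was not firm. It was lost without dediHep replicates 3 (FDR = 0.103), 4 (0.145) or 5 (0.151), without dediHep-SO replicates 1 (0.249), 2 (0.302) or 3 (0.147), and with UMI-corrected counts (0.105). With a block on the culture identifier that dediHep-SOs and dediHeps share, the difference was -0.69 (FDR = 0.448). DediHep-BOs held 519, 202 and 797 CPM, above all dediHep-SOs, with a log2 difference of 1.93 (SE 0.414, FDR = 0.00784). ISC-BOs, the adult intestinal organoids, held 509.9 to 747 CPM around a median of 676 CPM and FIPC-SOs 126, 66.9 and 51.1 CPM. Mt2 did not pass between dediHep-SOs and FIPC-SOs, except without FIPC-SO replicate 1 (1.15, FDR = 0.0378), nor between dediHep-BOs and ISC-BOs. Mt1 stood at 608 ± 259 CPM in dediHep-SOs, 863 ± 411 CPM in dediHep-BOs, 425 ± 217 CPM in FIPC-SOs (n = 3 each) and 1189 ± 254 CPM in ISC-BOs (n = 4), and it passed in none of the comparisons of dediHep-SOs with dediHeps or of organoids with each other, except between dediHep-SOs and FIPC-SOs without dediHep-SO replicate 3 (0.83, FDR = 0.0900).

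CLiPs held 1639.8, 834 and 1751 CPM of Mt1 and 786, 630.1 and 903 CPM of Mt2. Against FH the log2 differences were 2.14 (FDR = 0.0428, edgeR) and 4.56 (FDR = 9.584e-04). The call for Mt1 was lost without FH replicate 2 (FDR = 0.108) or CLiP replicate 1 (FDR = 0.107), and with corrected counts the difference was 3.22 (FDR = 0.0106). Neither gene passed between CLiPs and dediHeps, although Mt2 did without dediHep replicate 4, its highest library (1.56, FDR = 0.0735), and with all 49 libraries in 1 fit (1.15, FDR = 0.0274). With verteporfin Mt2 was at 476 and 624 CPM against 544 and 549 CPM with DMSO, and Mt1 at 788 and 1056 CPM against 856 and 670.1 CPM. These ranges overlapped, and neither gene passed. Over the 16 conditions the order of both genes in the deposited counts began with the 3-h libraries and ended with FH. For Mt2 the 3-h range lay apart from that of 1 day below it, whereas for Mt1 the 3-h, aggregate and 1-day ranges ran into each other. This order depended on the UMI limit, since with corrected counts Mt1 was highest at 1 day, followed by aggregates (4228 ± 1137 CPM) and 3 h, and the means of Mt2 at 3 h and 1 day, given above, were nearly equal.

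**Figure D4:**
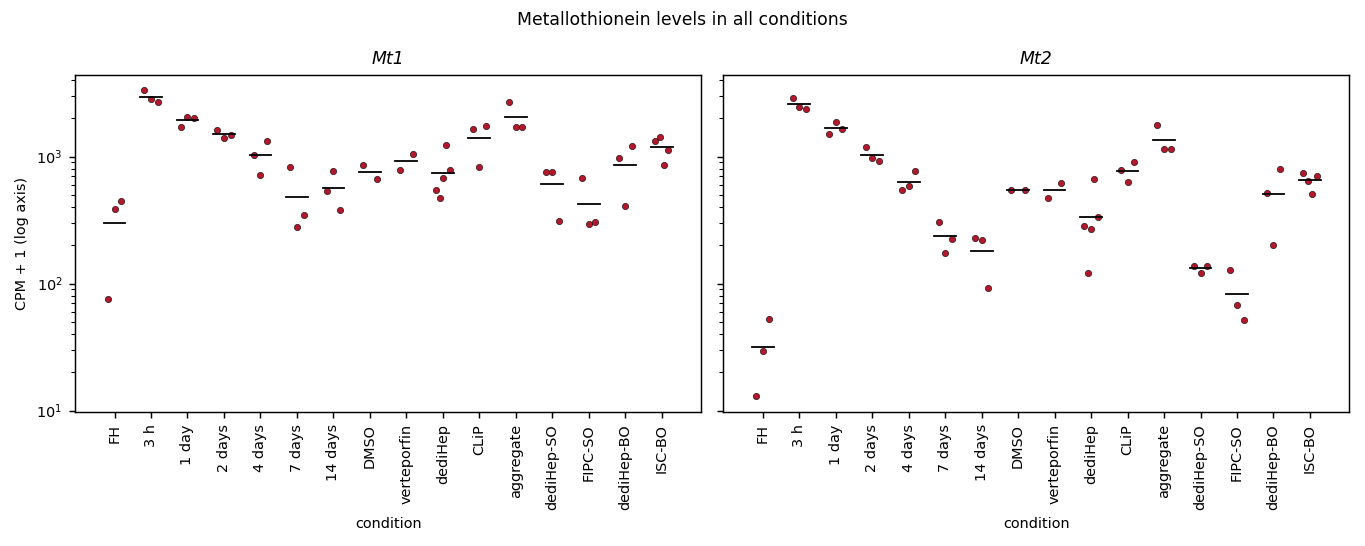
Levels of Mt1 and Mt2 are shown as CPM + 1 on a log axis in all 16 conditions, with points for libraries and lines for means. The mean of Mt2 ran from 30.8 CPM in FH to 2577 CPM at 3 h, and that of Mt1 from 302 to 2972 CPM, in counts not corrected for the UMI limit.

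Hmox1 showed a peak at 3 h that was followed by a lower level in all later cultures. It stood at 16.3, 31.3 and 5.98 CPM in FH and at 663, 1149.7 and 799 CPM at 3 h, a log2 difference of 5.64 (SE 0.654, FDR = 8.068e-06, edgeR). All 3 libraries at 3 h lay far above the highest of FH. By 1 day the level was 140.2, 65.6 and 68.7 CPM, below every library of 3 h, and the decline passed (log2 difference -3.42, FDR = 5.790e-05). It held 37.6 to 267 CPM at 2 days, 56.7 to 116 CPM at 4 days, 78.5 to 160.2 CPM at 7 days and 79.0 to 139.5 CPM at 14 days. These levels remained above FH by 2.22, 2.90, 2.22, 2.46 and 2.61 from 1 day to 14 days (FDR = 0.00105 at 14 days). Without FH replicate 2, the highest, the differences from FH were 6.30 at 3 h and 2.88 to 3.57 at the later times, and without 2-day replicate 1 that of 2 days was 2.19. Macrophages of the liver also express Hmox1. The macrophage markers named above summed to 3.299 to 194 CPM between 1 and 7 days and 10.3 to 441 CPM at 14 days. At 3 h, where Hmox1 was highest, the sum was 2.39 to 13.9 CPM, and of the 11 markers Cd5l, Vsig4, Marco and Adgre1 were at 0 counts in all libraries and 7 were not. Their part in the levels of Hmox1 was not tested.

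Hmox1 ranged from 22.2 to 109.9 CPM around a median of 56.4 CPM in dediHeps. This range overlapped that of FH, and the log2 difference of 1.59 (SE 0.699, FDR = 0.0971, edgeR) was lost with RLE normalization (FDR = 0.1001) and without FH replicate 1 (FDR = 0.186) or 3 (0.273) or dediHep replicate 2 (0.168) or 4 (0.177). Without FH replicate 2 it was 2.25 (FDR = 0.0758). Aggregates held 132, 127 and 92.3 CPM and CLiPs 158, 249 and 222 CPM. Aggregates overlapped dediHeps and did not pass against them (0.97, FDR = 0.210, edgeR). Aggregates and CLiPs lay above FH, by 2.57 (FDR = 0.00531) and 3.46 (FDR = 0.00326), or by 3.20 and 4.10 without FH replicate 2. DediHep-SOs held 32.5, 36.6 and 33.5 CPM. DediHep-BOs, at 18.02, 9.94 and 19.0 CPM, were lower than dediHep-SOs (log2 difference -1.13, FDR = 0.0290), a call lost without dediHep-BO replicate 2 (-0.86, FDR = 0.124) and with all 49 libraries in 1 fit (FDR = 0.152). ISC-BOs held 7.31 to 30.9 CPM around a median of 12.4 CPM. Verteporfin libraries, at 205 and 194 CPM, lay above the DMSO libraries, at 133 and 120.2 CPM. The difference passed only with a block on the replicate number (FDR = 0.0467, edgeR).

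Srxn1 rose as early as Hmox1 but held its level to 1 day. It stood at 112, 139.5 and 62.8 CPM in FH, at 1908, 824 and 1600.2 CPM at 3 h and at 1592, 1716 and 1430 CPM at 1 day. The log2 differences from FH were 3.79 at 3 h (SE 0.430, FDR = 6.273e-06, edgeR) and 3.75 at 1 day (SE 0.429, FDR = 6.604e-07). The level then declined to 734, 719.5 and 289.5 CPM at 2 days, a difference of 2.31 from FH (FDR = 9.631e-05). At 4 days it was 189 ± 48.3 CPM, which did not pass against FH, although it did without FH replicate 2 (0.98, FDR = 0.0964), with no low-count filter (0.82, FDR = 0.0971) and with all 49 libraries in 1 fit (0.79, FDR = 0.0607). By 14 days, at 118, 102 and 57.2 CPM, it overlapped the range of FH and was lower than at 1 day (log2 difference -4.07, FDR = 1.875e-07).

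The change of Srxn1 between 3 h and 1 day had no settled direction. The log2 difference was -0.05 (FDR = 0.935, edgeR) in the deposited counts and 0.79 (FDR = 0.145) with corrected counts, since 2830 to 3703 of the possible UMI sequences were in use at 1 day. It was 0.05 with no low-count filter, 0.02 with all 49 libraries in 1 fit, 0.19 and 0.07 without 3-h replicates 1 and 3, and 0.03 without 1-day replicate 3. The corrected means were 1475 ± 644 CPM at 3 h and 2795 ± 714 CPM at 1 day. The correction raised the difference from FH at 1 day to 4.89 and that between 14 days and 1 day to -5.12.

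Srxn1 in dediHeps ranged from 61.5 to 96.5 CPM around a median of 67.0 CPM. Aggregates held 176, 199.9 and 272 CPM, all above dediHeps, with a log2 difference of 1.58 (SE 0.265, FDR = 0.00467, edgeR). DediHep-SOs held 32.8, 33.6 and 57.5 CPM, the lowest mean of the 16 conditions. DediHep-BOs, at 80.6, 66.1 and 107 CPM, were above them by 1.02 (FDR = 0.0448), a call lost without dediHep-SO replicates 1 (FDR = 0.141) or 2 (0.164) or dediHep-BO replicates 1 (0.107) or 3 (0.130). Verteporfin gave 394 and 361 CPM against 203 and 238 CPM with DMSO. These ranges did not overlap, but the difference passed only with a block on the replicate number (FDR = 0.0122, edgeR).

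Txnrd1 rose later and less. FH held 238, 274 and 309 CPM and the 3-h libraries 491, 221 and 266 CPM, which overlapped. At 1 day it stood at 889, 639.5 and 711 CPM, above every library of FH and 3 h, with a log2 difference of 1.28 from FH (SE 0.331, FDR = 0.00455, edgeR) and of 1.03 from 3 h (FDR = 0.0149). At 2 days, 722, 481 and 388 CPM gave a difference of 0.79 (FDR = 0.0630), which was lost without FH replicate 1 (FDR = 0.149) or 2 (0.112) or without 2-day replicate 1 (0.269). At 4 days the level was 436 ± 133 CPM, which passed against FH only without 4-day replicate 2 (0.76, FDR = 0.0975) or with all 49 libraries in 1 fit (0.61, FDR = 0.0896). At 14 days it was 611, 624 and 479.7 CPM, again above all FH libraries (0.92, FDR = 0.0250). Without a block, Txnrd1 passed in no other comparison. The means of dediHeps, aggregates, CLiPs and the organoids ran from 245 ± 59.9 CPM in dediHep-BOs to 356 ± 38.7 CPM in FIPC-SOs. With verteporfin Txnrd1 was at 603 and 575 CPM against 416 and 396 CPM with DMSO. That difference passed only with a block on the replicate number (FDR = 0.0592, edgeR).

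The subunits of glutamate-cysteine ligase gave different calls in the monolayer, although the difference between them was not tested. Gclc, the catalytic subunit, rose at 3 h, from 410.1, 150.0 and 226 CPM in FH to 1179, 622 and 1232 CPM (log2 difference 1.95, SE 0.439, FDR = 0.00702, edgeR). By 1 day it was back at 227 ± 51.2 CPM, lower than at 3 h (log2 difference -2.33, FDR = 2.485e-04). Gclm, the modifier subunit, did not pass at 3 h, at 675, 680.1 and 871 CPM against 558, 429 and 497 CPM in FH, and then fell below FH. At 1 day it held 303, 334 and 304 CPM (-0.83, SE 0.296, FDR = 0.0356), at 2 days 174 ± 69.5 CPM (-1.67, FDR = 1.306e-04), at 4 days 161 ± 40.2 CPM (-1.76, FDR = 6.708e-05), at 7 days 262 ± 28.6 CPM (-1.08, FDR = 0.00527) and at 14 days 259 ± 70.1 CPM (-1.07, FDR = 0.00524). The 1-day call was lost without FH replicate 1 (FDR = 0.112), without 1-day replicate 3 (0.103) and with no low-count filter (0.191). From 3 h to 1 day Gclm fell by 1.42 on the log2 scale (FDR = 6.489e-04). Gclc passed against FH at no later time in the full set. It was lower at 2 days without FH replicate 2 (-0.99, FDR = 0.0977) or 2-day replicate 1 (-1.30, FDR = 0.0322) and at 4 days without 4-day replicate 3 (-1.07, FDR = 0.0797).

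Outside the time course, Gclc levels were higher in dediHeps and aggregates than in the organoids. DediHeps held 461 to 914 CPM around a median of 494 CPM and aggregates 534, 624 and 447 CPM. DediHep-SOs held 65.2, 54.2 and 95.5 CPM, with a log2 difference of -3.005 from dediHeps (SE 0.374, FDR = 5.117e-04, edgeR). The other organoids were as low, at 52.0 ± 20.7 CPM in dediHep-BOs, 52.3 ± 15.8 CPM in FIPC-SOs and 37.0 ± 8.34 CPM in ISC-BOs, and their ranges overlapped in the order of levels. Against FH, Gclc in dediHeps passed only under other settings (DESeq2, FDR = 0.0896; no low-count filter, 0.0745; UMI-corrected counts, 0.0643; all 49 libraries in 1 fit, 0.0261; without FH replicate 1, 0.0271), and in aggregates without FH replicate 1 (1.38, FDR = 0.0171) or with all 49 libraries in 1 fit (FDR = 0.0842). CLiPs held 162, 351 and 103 CPM, all below the dediHeps. That difference passed with DESeq2 (-1.55, FDR = 0.0146), with no low-count filter (FDR = 0.0709), with all 49 libraries in 1 fit (FDR = 0.00530) and without CLiP replicate 2 (-2.16, FDR = 0.0433). Verteporfin libraries held 197 and 264 CPM of Gclc and DMSO libraries 210.1 and 229 CPM, which overlapped.

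Gclm was lower in dediHeps than in FH, with 239 to 329.5 CPM around a median of 299.6 CPM (log2 difference -0.98, SE 0.275, FDR = 0.0159, edgeR). It was higher in aggregates than in dediHeps, at 719, 515 and 511 CPM (1.04, SE 0.244, FDR = 0.0202), a call lost without aggregate replicate 1 (0.82, FDR = 0.109). DediHep-SOs, at 268, 314 and 300.02 CPM, were above FIPC-SOs, at 123, 153 and 145 CPM, by 1.05 (SE 0.243, FDR = 0.0165). With verteporfin Gclm was at 250.3 and 351 CPM against 180.5 and 223 CPM with DMSO, ranges that did not overlap. The difference passed only with a block on the replicate number (FDR = 0.0708, against 0.530 without, edgeR). FIPC-SOs had the lowest mean of the 16 conditions and 3 h the highest, but the ranges of neighbouring conditions in the order overlapped throughout.

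Nqo1 had the highest level in ISC-BOs and few or no counts in FH, dediHeps, aggregates, CLiPs and dediHep-SOs. FH libraries held 1, 3 and 2 counts, the 3-h libraries 6, 6 and 8 and the 1-day libraries 16, 12 and 11 (6.18 ± 0.665 CPM). Both times lay above FH but did not pass (FDR = 0.126 and 0.167, edgeR), and the means of 2, 4, 7 and 14 days, 1.77 to 3.904 CPM, did not pass either. Verteporfin libraries held 20 and 24 counts, or 12.8 and 14.9 CPM, within the range of FIPC-SOs, and DMSO libraries 17 and 11, or 10.7 and 6.12 CPM, a difference that did not pass (FDR = 0.672). The 14-day libraries, with 5, 2 and 2 counts, were lower than those of 1 day (log2 difference -1.78, FDR = 0.0457, edgeR), which was lost without 1-day replicate 1 (FDR = 0.113), 14-day replicate 1 (0.136) or 2 (0.174) and with no low-count filter (0.117). DediHeps held 7, 0, 1, 0 and 1 counts, CLiPs 0 in all 3 libraries and dediHep-SOs 0, 0 and 1. FIPC-SOs held 26, 39 and 70 counts, or 10.1, 14.1 and 22.6 CPM. DediHep-SOs were 118-fold lower than FIPC-SOs, with a 95% counting interval of 20.8 to 4690.3 (FDR = 7.790e-04). DediHep-BOs held 7.51, 9.51 and 25.9 CPM, 108-fold higher than dediHep-SOs with a counting interval of 18.9 to 4306 (FDR = 0.00110). These intervals cover counting error only. The only dediHep-SO count was in replicate 3. The fitted log2 differences of dediHep-SOs from FIPC-SOs and of dediHep-BOs from dediHep-SOs were -6.42 and 6.24, and they ranged from -8.42 to -5.77 and from 5.54 to 8.11 when 1 library was left out. ISC-BOs held 36.0 to 48.8 CPM around a median of 40.8 CPM, the highest mean of the 16 conditions. DediHep-BOs were lower than ISC-BOs (log2 difference -1.49, SE 0.399, FDR = 0.0546). This call was lost without dediHep-BO replicates 1 (FDR = 0.212) or 2 (0.218) or ISC-BO replicates 1 (0.105) or 3 (0.102) and with all 49 libraries in 1 fit (0.166), and without dediHep-BO replicate 3 the difference was -2.22.

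Gpx2 was present in organoids and almost absent from hepatocyte cultures. It had 0 counts in all libraries of FH, of 2 to 14 days, of DMSO, dediHeps and aggregates, and at most 6 counts in any library of 3 h, 1 day, verteporfin and CLiPs. DediHep-SOs held 512, 478 and 531 CPM, at least 1959.6-fold above dediHeps when 3 counts are allowed over the dediHep libraries (FDR = 1.962e-05, edgeR). Gpx2 passed the low-count filter of this comparison only through the dediHep-SOs, so the call is a description. FIPC-SOs held 440.2, 572 and 455 CPM, a range that enclosed that of dediHep-SOs, and the difference did not pass. DediHep-BOs held 162, 106 and 242 CPM, lower than dediHep-SOs (log2 difference -1.58, SE 0.296, FDR = 0.00383). ISC-BOs held 145 to 292 CPM around a median of 247 CPM and overlapped dediHep-BOs. The order of levels fell into dediHep-SOs and FIPC-SOs, then ISC-BOs and dediHep-BOs, then all other conditions. Of 12 intestinal epithelium markers, the summed level was 1102 to 1199 CPM in dediHep-SOs, 1592 to 2012 CPM in FIPC-SOs, 4365 to 5174 CPM in dediHep-BOs and 4974 to 5966 CPM in ISC-BOs, so Gpx2 was not highest where this sum was.

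Gpx3 appeared during the culture of hepatocytes. FH and 3-h libraries held 0 counts, 1-day libraries 9.03, 9.66 and 8.085 CPM and 2-day libraries 8.46 ± 0.734 CPM. It reached 35.5, 10.0 and 17.7 CPM at 4 days, 254, 12.9 and 56.4 CPM at 7 days and 277.5, 280.3 and 280.5 CPM at 14 days. Allowing 3 counts over the FH libraries, these levels were at least 8.003-fold, 7.63-fold, 19.4-fold, 100.8-fold and 249.96-fold higher than in FH from 1 day to 14 days (FDR = 0.0140, 0.0130, 0.00121, 1.948e-05 and 2.078e-06, edgeR). Gpx3 passed the low-count filter of the time course only through the cultures from 1 day on, so these calls are descriptions. The spread was wide at 4 and 7 days, with replicate 1 highest in both. Without it the calls held (FDR = 0.00437 and 1.128e-05), and the levels were at least 12.1-fold and 34.7-fold higher than in FH. The 14-day libraries were higher than those of 1 day by 4.99 on the log2 scale (SE 0.751, FDR = 5.110e-05). Markers of stellate cells and fibroblasts, 8 genes, summed to 0.505 to 44.1 CPM from 1 day to 4 days, 44.5 to 175 CPM at 7 days and 63.0 to 353 CPM at 14 days, against 66.8 to 184 CPM in FH, where Gpx3 had 0 counts. Their part in the levels of Gpx3 was not tested.

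The passaged and small-molecule cultures differed in Gpx3. DediHeps held 0.617 to 8.68 CPM around a median of 6.10 CPM, at least 4.03-fold above FH (FDR = 0.0408, edgeR). CLiPs held 199, 170.2 and 1109 CPM, all above every dediHep library, with a log2 difference of 6.57 (SE 0.880, FDR = 0.00866), or 5.16 (FDR = 0.0107) without CLiP replicate 3. Against FH, CLiPs were at least 362-fold higher (FDR = 0.00174), or 160-fold without CLiP replicate 3 and 596-fold without CLiP replicate 2. In dediHeps and CLiPs against FH, Gpx3 passed the low-count filter only through the cultured cells. The stellate and fibroblast markers summed to 3.13 to 26.8 CPM in CLiPs and to at most 2.74 CPM in dediHeps. The second aggregate library held 17.4 CPM and the others 0, so aggregates and dediHeps overlapped. DediHep-SOs and dediHep-BOs held 0 counts in every library, dediHep-SOs at least 11.1-fold below dediHeps (FDR = 0.0287, lost without dediHep-SO replicate 1, FDR = 0.103). Verteporfin libraries held 226 and 202 CPM of Gpx3 and DMSO libraries 45.4 and 28.4 CPM. Both lay within the range of the 7-day libraries of the time course, 12.9 to 254 CPM. In the fit without a block, Gpx3 was the only one of the 10 genes that passed for verteporfin (2.53, SE 0.313, FDR = 0.0129, edgeR, eighth smallest p of all genes). With all 49 libraries in 1 fit this call was lost (2.50, FDR = 1.000).

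**Figure D5:**
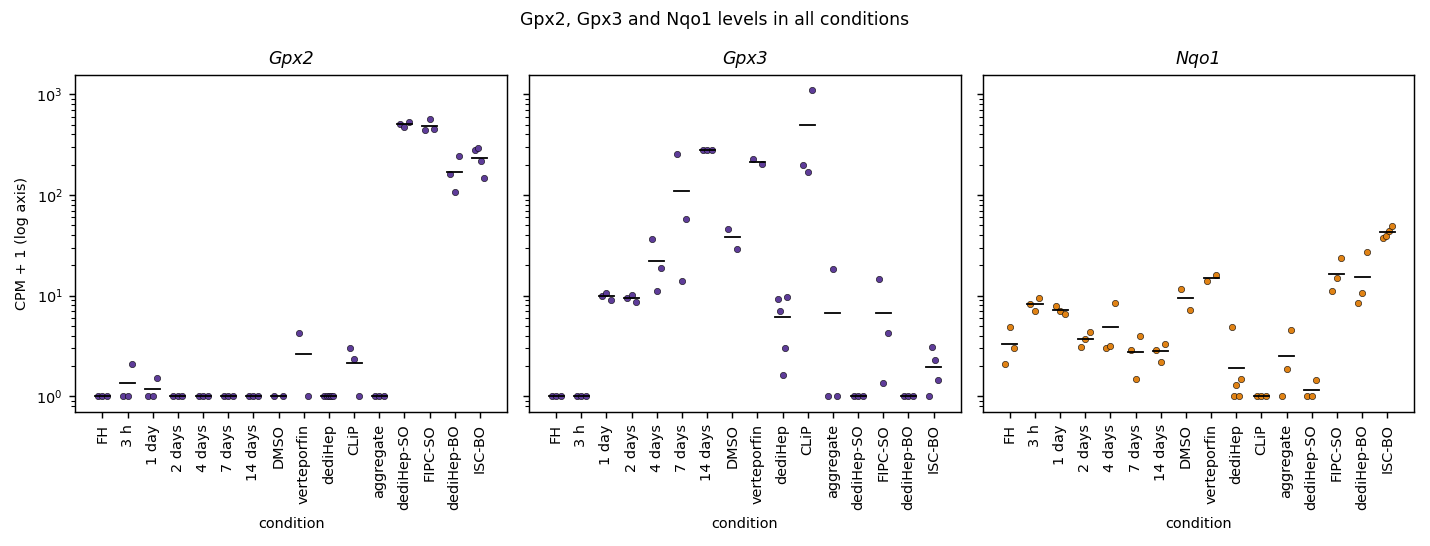
Levels of Gpx2, Gpx3 and Nqo1 are shown as CPM + 1 on a log axis in all 16 conditions, with points for libraries and lines for means, so that a count of 0 sits at 1. Gpx2 lay above 100 CPM in the 4 organoid conditions and below 4 CPM elsewhere, Gpx3 was highest in CLiPs and at 14 days, and Nqo1 was highest in ISC-BOs.

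More regulators of NRF2 rose than fell at 3 h. Of 10, 4 rose and 1 fell at 3 h, and 2 were higher and 3 lower at 14 days. For these and the lists that follow, the shares of all genes higher and lower were 7.58% and 10.9% at 3 h, 28% and 27.6% at 14 days, 22.4% and 22.7% in dediHeps against FH, 12.2% and 12.2% in aggregates against dediHeps, and 7.93% and 8.21% in dediHep-SOs against dediHeps. Apart from the share that rose at 3 h, the shares of the regulators in these comparisons lay near or below those of all genes. Nfe2l2 itself stood at 83.5 ± 63.5 CPM in FH and 331 ± 131 CPM at 3 h (log2 difference 1.99, FDR = 0.0373, edgeR), and the small MAF genes Maff and Mafk rose by 3.90 and 2.04. Bach1, the repressor, rose by 2.55, and Keap1 was lower (log2 difference -0.77, FDR = 0.0918). By 14 days Maff and Mafk remained higher than in FH (2.61 and 2.24), while Bach1, Keap1 and Mafg were lower (-2.26, -0.91 and -1.08) and Nfe2l2 did not pass (FDR = 0.663). In dediHeps Maff and Mafk were higher than in FH (2.29 and 1.72) and Bach1 was lower (-1.62), and Keap1 and Nfe2l2 did not pass (FDR = 0.192 and 0.278). In aggregates Nfe2l2 was lower than in dediHeps (-2.89, FDR = 0.0537), at 31.7 ± 11.2 against 237 ± 319 CPM, the SD of dediHeps being larger than their mean. Sqstm1, whose protein p62 sequesters KEAP1, was higher (0.88). None of the 10 passed between dediHep-SOs and dediHeps in edgeR.

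Of 15 genes of zinc handling other than Mt1 and Mt2, 12 were tested in the time course. The shares of this list that were higher at 14 days and in dediHeps were near those of all genes. At 3 h 2 rose, the importers Slc39a14 (2.33) and Slc39a1 (1.49), and none fell. Mtf1, which encodes the zinc sensor, stood at 36.0 ± 6.41 CPM at 3 h and 40.3 ± 20.7 CPM in FH (FDR = 0.815, edgeR). At 14 days 3 rose, among them Slc39a6 (3.297), and 7 fell, among them the exporter genes Slc30a10 (-7.43) and Slc30a1 (-1.85), the importer Slc39a8 (-3.70) and Mtf1 (-0.96, FDR = 0.0300). In dediHeps 3 of 11 were higher than in FH and 4 lower, with Slc30a10 and Slc39a8 again lower (-8.26 and -3.82) and Slc39a14 lower (log2 difference -1.89). In aggregates 3 of 10 were higher than in dediHeps, Slc39a5 (3.21), Slc30a1 (1.57) and Slc39a14 (1.29), and Slc39a10 was lower (-3.25). In dediHep-SOs 2 of 10 were higher than in dediHeps, Slc39a8 (3.25) and Slc39a4 (1.14), and Mtf1 did not pass in either comparison (FDR = 0.904 and 0.324).

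Other known NRF2 targets were more often lower than higher after 14 days, unlike at 3 h. Of 34 tested, 5 rose and 0 fell at 3 h, among them the glutathione transferases Gsta1 (2.50) and Gstm3 (1.68) and the efflux pump Abcc3 (1.03). By 14 days 7 were higher than in FH and 20 lower, with the efflux pumps Abcc4 (7.61) and Abcc1 (5.54) and G6pdx (4.04), which supplies NADPH, higher and Gsta3 (-5.34) and Blvrb (-3.97) among those lower. In dediHeps 7 were higher and 14 lower than in FH, including Gstm4 (-4.16). In aggregates 15 of 34 were higher than in dediHeps and 1, Abcc1 (-2.25), was lower, against 12.2% and 12.2% of all genes. Gstm4 (3.56) and Gstm3 (4.57) were among those that were higher, and the summed hepatocyte markers moved with them, at 1048 to 4871 CPM in dediHeps and 9194 to 13201 CPM in aggregates. The part of these markers was not tested. In dediHep-SOs 2 of 32 were higher than in dediHeps, among them Akr1b8 (3.17), and 7 were lower, among them Gsta1 (-4.62) and Ugdh (-2.16). The median log2 differences of this list in these 5 comparisons were 0.35, -0.95, -0.49, 0.59 and -0.29, against -0.07, 0.04, 0.08, -0.07 and -0.05 over all genes.

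Of the genes of glutathione synthesis and use, 3 of 15 rose at 3 h, the glutathione-degrading Chac1 (4.34), the cystine transporter subunit Slc3a2 (1.19) and the glutaredoxin Glrx (0.97), and none fell. At 14 days 4 were higher and 6 lower than in FH. The liver glutaminase Gls2 (-7.03) and the transsulfuration genes Cth (-6.40) and Cbs (-4.81), which supply cysteine, were among the lower. DediHeps had the same direction for these 3 genes (Gls2 -5.75, Cth -4.98, Cbs -4.79), with 3 of 15 higher and 6 lower. In aggregates 9 of 16 were higher than in dediHeps and 1 was lower, with Cbs (3.36), Ggct (2.12) and glutathione synthetase Gss (1.57) among the higher. In dediHep-SOs 1 of 15 was higher, Ggct (1.11), and 5 were lower, including Cth (-3.68) and Chac1 (-3.63). The medians of this list, in the order of comparisons used for the NRF2 targets, were 0.52, -0.23, -0.55, 1.34 and -0.25.

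Of the remaining enzymes against oxidants, more were lower than higher at 14 days and in dediHeps. All 10 hepatocyte markers were also lower than in FH in both comparisons (median log2 differences -4.51 and -3.64), and their part in these counts was not tested. Of 3 other glutathione peroxidases tested, 0 passed at 3 h, and at 14 days Gpx8 was higher (5.71) and Gpx1 lower (-1.86). Gpx1 was also lower in dediHeps (-3.57), and Gpx4 was lower in dediHep-SOs than in dediHeps (-1.02). Of 4 genes that remove superoxide and peroxide, Sod2 rose (1.00) and Sod3 fell (-2.19) at 3 h. All 4 were lower than in FH at 14 days and in dediHeps, including Sod1 (-2.16 and -2.25) and catalase, Cat (-1.50 and -1.66). Of 11 thioredoxin and peroxiredoxin genes, 1, Txnip (2.93), rose at 3 h. At 14 days Prdx2 was higher (1.51) and 6 were lower, including Prdx4 (-2.27) and Txnrd2 (-2.15), and in dediHeps 4 were lower. In aggregates 2 were higher than in dediHeps, Txnrd2 (1.92) and Prdx4 (1.16). Of 11 genes of heme and iron handling other than Hmox1, Alas1, the first enzyme of heme synthesis, rose at 3 h (1.54). At 14 days 8 of 11 were lower than in FH, including the hepcidin gene Hamp (-3.67), and in dediHeps 6 were lower, including Alas1 (-3.28).

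The genes most like each member were found by the correlation of log2(mean CPM + 1) over the 16 condition means, as a description. The closest gene to Mt1 was Mt2 (Pearson r = 0.957), far ahead of the next, Snf8 (0.816), which was also the next gene for Mt2 (0.801). The transcripts of Mt1 and Mt2 share no exact run longer than 20 bases and 12 within their last 200 bases, where 60.6% of bases were identical. Srxn1 was less like Mt1 (0.712). Hmox1 was most like Ube2g2 (0.922), Nqo1 like Mgme1 (0.877), Gclc like Tmem150a (0.922), Gclm like Glul (0.961), Srxn1 like Ttc19 (0.927), Txnrd1 like Usp14 (0.941), Gpx2 like S100a14 (0.995) and Gpx3 like Atp6v0e2 (0.961). The subunit genes Gclc and Gclm correlated at 0.659, and Gclc and Gpx2 at -0.840. The 16 points share cell origin, medium and sequencing depth to differing degrees, and the values are a ranking without a test.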

How the data were processed

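Libraries were made by CEL-Seq2, which reads the 3′ ends of transcripts. The authors deposited a matrix of UMI counts per Ensembl gene for 49 libraries, made with the celseq2 pipeline and not normalized. The processing notes of the submitters name bcl2fastq 2.20, Bowtie2 2.3.1, HTSeq 0.6.0 and the build GRCm38. Whether counting used the strand is not given in the sources used here, so reads of Mt2 and of the antisense gene Gm45774, and of Gpx2 and Fntb on the other strand, cannot be told apart if it did not. Gclm also overlaps Gm17494 and Gm6061, and Txnrd1 overlaps Gm38560, Gm47073 and Eid3, in GENCODE M21.

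Symbols were assigned to 45143 of 46078 identifiers. Genes were kept by filterByExpr (minimum count 10, minimum total count 15) and tested with edgeR 4.0.16 in R 4.3.3 (limma 3.58.1, data.table, version 1.17.8), with TMM normalization and Benjamini-Hochberg adjustment over all genes tested. FH and the 6 culture times were 1 fit, and other comparisons were fitted on the libraries compared. Each SE was derived from the F statistic. Folds against a group with 0 counts were set against 3 counts over the group. The test was checked on simulated counts. Alternatives were RLE normalization, DESeq2 1.42.0, no low-count filter, all 49 libraries in 1 fit, the threshold of the study, which adds a log2 fold change beyond 2 in size to the FDR, counts corrected for molecules that share a UMI, a replicate block and leaving out each library.

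The rule for named genes takes all 10 genes in every comparison, and in comparisons where several did not pass they are given by their levels or counts. Of each list of related genes, up to 3 per direction with the smallest p are eligible to be named in 5 comparisons, with Nfe2l2, Keap1, Bach1 and Mtf1 throughout, and the most similar genes are those with the highest correlation over 16 condition means among genes of at least 10 CPM in 1 condition. The members and lists were chosen with earlier results of these data known. For aggregates and dediHeps that share a culture identifier in the labels, deviations correlated at 0.189 to 0.345 in 3 pairs. Their main fit nevertheless held no block, so the values given for aggregates against dediHeps are unpaired. A block on the culture is given as an alternative. In no other comparison with 3 pairs, that of dediHep-SOs and dediHeps by culture identifier included, did every pair exceed 0.1. The 2 pairs of verteporfin and DMSO libraries that share a number correlated at 0.393, and their block is also given as an alternative. With 2 libraries per group both pairs must give the same value, so this is 1 value and not 2. The block leaves little from which to estimate the spread. Promoter windows and sequences are from RefSeq (GRCm38.p6) and were read with Biopython 1.88. One gene of the list of glutathione genes is counted there but not reported here by name.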

Additional observations from a re-analysis of the deposited data

Results flagged for a closer look

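Among 20 sets of 4 or 5 libraries of 1 gene and 1 condition that were examined for a library far from the others, 2 stood out, both with dediHep replicate 1. Gclc was at 914 CPM in that library and at 461 to 552 CPM in the other 4, so that the gap to the nearest library took 0.799 of the whole range. Nqo1 was at 3.83 CPM (7 counts) in that library and at 0 to 0.482 CPM in the others, a gap of 0.874 of the range. Chance alone marks about 1 in 20 such sets.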

How the results depend on the processing

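Over 99 pairs of a gene and a comparison and all alternatives except the threshold of the study, 1165 of 1278 values kept their direction and their side of the FDR threshold, 51 lost the call, 51 gained it and 11 turned in direction. These pairs were those that passed, or that changed call or direction under an alternative. Tested pairs that did neither were not counted, so the counts are not shares of all pairs. Gpx3 turned between aggregates and dediHeps, from 0.32 to -0.49 with a block on the title number (FDR = 0.781), -0.69 with a block on the culture (FDR = 0.683) and -6.43 to 0.87 when 1 library was left out, since 1 aggregate library held all counts. Between 3 h and 1 day, corrected counts turned Mt1 to 0.56 and Srxn1 to 0.79, and Srxn1 was 0.051 with no low-count filter, 0.024 with all 49 libraries in 1 fit and -0.32 to 0.19 when 1 library was left out.

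With the threshold of the study the number of the 10 genes that passed was 3 at 4 days, 3 at 14 days, 3 for 1 day against 3 h, 3 for 14 days against 1 day, 2 for dediHeps against FH, 1 for aggregates against dediHeps, 1 for dediHep-SOs against FIPC-SOs, 1 for dediHep-BOs against dediHep-SOs and 0 against ISC-BOs. With all 49 libraries in 1 fit it was 7 for dediHeps and 6 for aggregates against FH, 6 for CLiPs against dediHeps, and 0 for dediHep-BOs against ISC-BOs and for verteporfin. DESeq2 and no low-count filter each gave 3 for CLiPs against dediHeps. Leaving out 1 library gave 2 to 4 genes for dediHeps against FH, 2 to 4 for dediHep-SOs against dediHeps, 2 to 4 against FIPC-SOs, 0 to 1 for dediHep-BOs against ISC-BOs and 1 to 3 for CLiPs against dediHeps. Calls also appeared for Srxn1 in dediHeps against FH without FH replicate 3 (-0.98, FDR = 0.0638), and in dediHep-SOs against dediHeps with DESeq2 (FDR = 0.0808), all 49 libraries in 1 fit (FDR = 0.0555) and without dediHep-SO replicate 3 (-1.14, FDR = 0.0673), against FIPC-SOs without dediHep-SO replicate 3 (-0.77, FDR = 0.0741), for Hmox1 in CLiPs against dediHeps without dediHep replicate 4 (2.00, FDR = 0.0967) and for Gclm in CLiPs against FH without CLiP replicate 3 (-1.05, FDR = 0.0834). The cause was not tested.

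A block on the culture, used as an alternative to the unpaired fit, changed no call of the 10 genes for aggregates against dediHeps. DediHep-SOs and dediHeps also share culture identifiers in the labels, but their deviations correlated at no more than 0.0392 in 3 pairs, so the block is given as an alternative. Elsewhere the samples share only a number. A block on the number of the description gave 3 genes for 1 day against 3 h, where Mt2 (FDR = 0.286), Txnrd1 (FDR = 0.666) and Gpx3 (FDR = 0.158) lost their calls. A block on the title number gave 5 for verteporfin, adding Hmox1, Gclm, Srxn1 and Txnrd1. For dediHep-SOs against dediHeps Mt2 lost its call with the title number (FDR = 0.414) and the culture (FDR = 0.448), for dediHeps against FH Gclc gained one (FDR = 0.0201), and Mt2 gained one between dediHep-SOs and FIPC-SOs (FDR = 0.0911), as did Hmox1 between aggregates and dediHeps with the title number (FDR = 0.0528) and Srxn1 at 4 days with the description number (FDR = 0.0710).

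Over all genes, a block on the description number, of which 1 is shared, moved the count of calls from 2301 to 296 at 3 h and from 6558 to 3138 for 1 day against 3 h, where the title number gave 2280 and 6590. Other blocks moved it from 1851 to 1064 (title) or 1028 (culture) for dediHep-SOs against dediHeps, 543 to 279 for CLiPs against dediHeps (title) and 39 to 882 for verteporfin (title). All 49 libraries in 1 fit gave 4784 for 2754 (aggregates against dediHeps), 5323 for 3403 (against FH), 3750 for 1851 (dediHep-SOs against dediHeps), 2820 for 543 and 6854 for 3860 (CLiPs against dediHeps and FH) and 0 for 39 (verteporfin). With no low-count filter the counts were 4225 for 2723 (dediHep-SOs against FIPC-SOs), 2328 for 1152 (dediHep-BOs against ISC-BOs), 923 for 543 (CLiPs against dediHeps) and 254 for 39 (verteporfin), and DESeq2 gave 1169 and 79 in the last 2 of these. Leaving out 1 library gave 1201 to 3657 at 3 h, 1106 to 3215 for aggregates against dediHeps, 927 to 2102 (1851 with all libraries) for dediHep-SOs against dediHeps, 1646 to 5100 (2723) against FIPC-SOs, 2787 to 7082 (4576) for dediHep-BOs against dediHep-SOs, 440 to 2096 (1152) for dediHep-BOs against ISC-BOs, 109 to 793 for CLiPs against dediHeps and 84 to 366 for verteporfin. The threshold of the study left 860 of 2301 genes at 3 h, 2170 of 4962 at 1 day, 2649 of 5517 at 2 days, 2958 of 5843 at 4 days, 3225 of 6102 at 7 days, 3668 of 6921 at 14 days, 3010 of 6558 and 1910 of 3738 for 1 day against 3 h and 14 days against 1 day, 2901 of 5089 for dediHeps, 1580 of 3403 for aggregates and 2557 of 3860 for CLiPs against FH, 1071 of 2754, 1005 of 1851 and 352 of 543 for aggregates, dediHep-SOs and CLiPs against dediHeps, and 1034 of 2723, 1275 of 4576 and 345 of 1152 for the other organoid comparisons. Verteporfin calls were 84.6% higher, and 68.4% higher with DESeq2. RLE moved the median log2 difference of all genes for CLiPs against FH from 0.18 to 0.05. Depth limits Nqo1, Gpx2 and Gpx3 where they had few counts, and the UMI limit Mt1, Mt2 and Srxn1.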
